A study of Mus musculus with 6 samples.

Results

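Nefl, Nefm, Nefh, Ina, Prph, Nes and Vim encode intermediate filament proteins, and these 7 genes were taken by name from the 54532 genes of the deposited table. They were selected on the FPKM of these same libraries, because Nefm was among the largest rises in p53-deficient cells. Their differences between p53-deficient and wild-type (WT) cells are therefore given as a description, with no test. RNA came from mouse embryonic stem cells of strain 129SV that are haploid, in 2 groups of 3 libraries each: p53-deficient haploid cells, titled P53ki and called a knockout in the series design, and WT haploid cells. The study asks whether blocking apoptosis limits the return of such cells to a diploid state during differentiation, and this is its one RNA comparison. Nothing in the labels says that the libraries came from separate cultures or clones, so the spread between libraries may be technical, and what comes with the line or clone and what comes with p53 loss cannot be told apart.

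Intermediate filaments are rope-like polymers of the cytoskeleton, built from proteins that share a central coiled-coil rod. The neurofilament light, medium and heavy chains (Nefl, Nefm, Nefh) co-assemble in axons, where the light chain forms the core and the long tails of the other chains project from it and set axon calibre. Alpha-internexin (Ina) joins them in central neurons and peripherin (Prph) in peripheral neurons. Nestin (Nes) marks neural progenitors, and vimentin (Vim) is the main filament of mesenchymal cells, including fibroblasts.

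The libraries held 11536412 to 21218976 reads in listed genes in p53-deficient cells and 17065841 to 20331905 in WT cells, as rebuilt from the FPKM, a level corrected for the length of the gene and the depth of the library. Trp53, which encodes p53, averaged 9.80 ± 0.155 FPKM in p53-deficient cells and 68.0 ± 3.03 FPKM in WT cells (SD, n = 3 each). Cdkn1a, a p53 target whose product p21 halts the cell cycle, averaged 9.66 ± 0.645 FPKM in p53-deficient cells and 87.6 ± 0.523 FPKM in WT cells. All 10 pluripotency markers were detected in every library. Of these, 4 were called higher and 5 lower (limma), beside 66.5% of all genes tested called, and the median log2 fold change was -0.08. Sox2 (167 to 181 FPKM in p53-deficient and 179 to 184 FPKM in WT libraries) was not called. The summed level of the 10 was 2476 to 2542 FPKM in p53-deficient and 3452 to 3513 FPKM in WT libraries. Nanog averaged 221 FPKM in p53-deficient cells and 330 FPKM in WT cells. Dppa5a averaged 1075 FPKM in p53-deficient cells and 2007 FPKM in WT cells, which was most of the difference between the sums. Esrrb averaged 101 and 54.4 FPKM in the same order. Pou5f1 (Oct4) stood at 396 to 425 FPKM in p53-deficient cells and 367 to 376 FPKM in WT cells.

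The 7 genes went in both directions. Nefl, Nefm and Prph were higher in every p53-deficient library than in every WT library, and Nefh, Ina, Nes and Vim were lower in every p53-deficient library. All 7 passed the filter of a mean of at least 0.5 FPKM, as did 15144 genes in all. Over those 15144 genes the libraries of the groups did not overlap in 71.4%, with p53-deficient cells higher in 37.7% and lower in 33.7%, and the median log2 fold change was 0.03. Because the contrast chose the set, nothing is read from the count of 7.

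**Figure D1:**
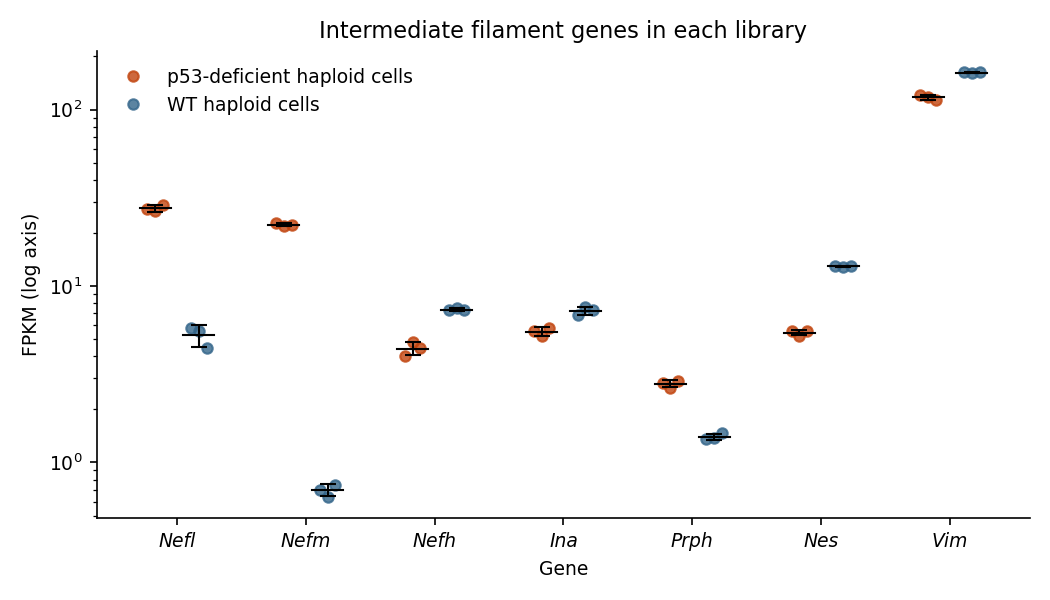
FPKM of the 7 genes in each library on a log axis, with p53-deficient libraries left of WT libraries for each gene; points are libraries, and black bars are the mean ± SD of 3. Nefm lies at 21.8 to 22.7 FPKM in p53-deficient cells and 0.640 to 0.748 FPKM in WT cells, while Vim is the most abundant gene in both groups.

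Nefm, the medium chain (ENSMUSG00000022054, chromosome 14, 68082590 to 68124846, minus strand, mm10), had 22.7, 21.8 and 22.2 FPKM in the p53-deficient libraries, against 0.701, 0.640 and 0.748 FPKM in the WT libraries. The p53-deficient libraries lay close together and far above the WT libraries, where Nefm was the lowest of the 7 genes. The ratio of mean FPKM was 31.9, and the log2 fold change was 3.77 with SE 0.0412. All log2 fold changes here are differences of log2(FPKM + 1), which understate the change of a gene as low as Nefm in WT cells. Rebuilt reads numbered 2761, 1454 and 2261 in p53-deficient libraries and 70, 73 and 89 in WT libraries, a depth-adjusted ratio of 31.5 (95% exact binomial interval 27.7 to 36.1). This interval and those that follow cover counting error only, since reads were pooled per group, and leave out the spread between libraries. The reads also carry no molecular identifiers. Ranked by log2 fold change among the 4458 protein-coding genes called higher with a mean of 1 FPKM or more, Nefm was number 7, between Rpl26 at 3.83 and Rpl21 at 3.39.

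Nefl, the light chain that forms the filament core (ENSMUSG00000022055, chromosome 14, 68083863 to 68089095, plus strand), had 27.3, 26.5 and 28.7 FPKM in the p53-deficient libraries, against 5.79, 5.57 and 4.43 FPKM in the WT libraries. All p53-deficient libraries were high, and WT replicate 3 was the lowest library of its group. The ratio of means was 5.23 and the log2 fold change 2.19 (SE 0.0871), number 39 in the same ranking. The read ratio was 5.21 (95% interval 4.87 to 5.58), from 4689 reads in p53-deficient and 1017 in WT libraries.

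Nefh, the heavy chain (ENSMUSG00000020396, chromosome 11, 4938754 to 4948064, minus strand), had 4.03, 4.79 and 4.43 FPKM in the p53-deficient libraries, against 7.26, 7.51 and 7.26 FPKM in the WT libraries. It was lower in every p53-deficient library, the opposite direction to Nefl and Nefm, with a log2 fold change of -0.63 (SE 0.0570). Its p53-deficient over WT read ratio was 0.583 (95% interval 0.537 to 0.633), from 872 reads in p53-deficient and 1689 in WT libraries. The summed FPKM of the 3 chains averaged 54.1 ± 1.13 in p53-deficient cells and 13.3 ± 0.752 in WT cells (SD, n = 3 each). Nefm made up 41.0% ± 0.943 of that sum in p53-deficient cells and 5.26% ± 0.686 in WT cells. Nefl made up 50.8% ± 1.01 in p53-deficient cells and 39.4% ± 3.40 in WT cells. Nefh made up 8.17% ± 0.796 in p53-deficient cells and 55.3% ± 2.84 in WT cells. On the deposited lengths the heavy chain was thus the most abundant of the triplet in WT cells and the least abundant in p53-deficient cells. Its place in WT cells depends on the length taken for Nefl, some of whose exon bases are shared with Nefm.

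**Figure D2:**
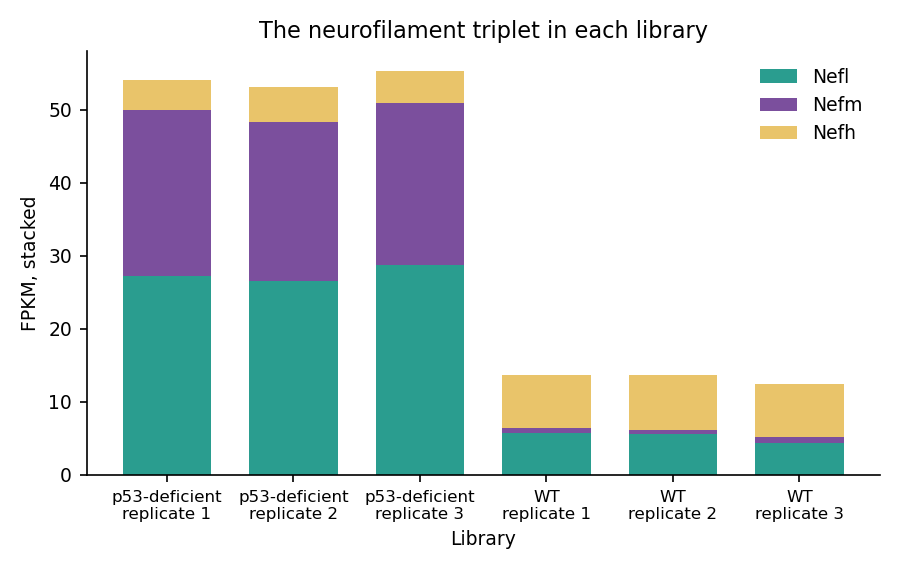
Stacked FPKM of Nefl, Nefm and Nefh in each library, p53-deficient libraries on the left and WT libraries on the right. The sum averages 54.1 FPKM in p53-deficient libraries and 13.3 FPKM in WT libraries, and the Nefm segment is barely visible in WT libraries.

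Ina (ENSMUSG00000034336, chromosome 19, 47014698 to 47025327, plus strand), the alpha-internexin gene, had 5.55, 5.18 and 5.81 FPKM in the p53-deficient libraries, against 6.81, 7.55 and 7.29 FPKM in the WT libraries. Its log2 fold change of -0.34 (SE 0.0536) was the smallest of the 7 in size, and its read ratio was 0.757 (95% interval 0.695 to 0.824). Exons of Ina share 456 bases, 14.1% of their length, with exons of Nt5c2 on the opposite strand, which averaged 12.2 FPKM. Since the library kit is not stated to mark strand, reads of the shared bases cannot be assigned to one of these genes.

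Prph, which encodes the peripheral neuron filament peripherin (ENSMUSG00000023484, chromosome 15, 99055174 to 99058978, plus strand), had 2.83, 2.64 and 2.89 FPKM in the p53-deficient libraries, against 1.36, 1.37 and 1.46 FPKM in the WT libraries. The groups were narrow and apart, with a log2 fold change of 0.66 (SE 0.0539). It rested on the fewest reads of the 7 genes, 282 in p53-deficient and 161 in WT libraries, with a ratio of 1.98 (95% interval 1.62 to 2.42).

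Nes (ENSMUSG00000004891, chromosome 3, 87971078 to 87980451, plus strand), the nestin gene, had 5.56, 5.21 and 5.54 FPKM in the p53-deficient libraries, against 12.9, 12.8 and 12.9 FPKM in the WT libraries. Its log2 fold change was -1.11 (SE 0.0348), the largest fall in size among the 7 and number 655 of the 3696 protein-coding genes called lower with a mean of 1 FPKM or more. Its reads numbered 1764 in p53-deficient and 4759 in WT libraries, a ratio of 0.419 (95% interval 0.396 to 0.442). Nestin made up 8.35% ± 0.167 of the summed FPKM of Nefl, Nefm, Nefh, Ina and Nes in p53-deficient cells and 38.6% ± 1.00 in WT cells (SD, n = 3 each).

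Vim (ENSMUSG00000026728, chromosome 2, 13573927 to 13582826, plus strand), the vimentin gene, had 121, 118 and 113 FPKM in the p53-deficient libraries, against 163, 161 and 163 FPKM in the WT libraries. The WT libraries lay within a narrow range, and every p53-deficient library was below them, with a log2 fold change of -0.46 (SE 0.0288) and a read ratio of 0.713 (95% interval 0.703 to 0.724). The summed FPKM of the 7 genes averaged 185 ± 3.21 in p53-deficient cells and 197 ± 0.573 in WT cells. Vim alone made up 63.3% ± 1.25 of the summed FPKM of the 7 genes in p53-deficient cells and 82.3% ± 0.384 in WT cells (SD, n = 3 each). The longest annotated transcript of each of the 7 genes was searched for near-identical copies at 95% identity. None was found, apart from the exons that Nefm shares with Nefl and Ina with Nt5c2. For Nefm this search left out the last exon of Nefm-201, its shorter transcript, which has 2102 bases.

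Vim and Nes are also made by fibroblasts, whose markers were lower in p53-deficient libraries. Of 27 fibroblast markers, 25 were tested, 25 were lower and none was higher, with a median log2 fold change of -2.22 (limma, adjusted over all genes), beside 31.3% of all genes tested called lower. The summed level of the 27 was 437 to 462 FPKM in p53-deficient libraries and 1916 to 1925 FPKM in WT libraries, and no marker was at 0 in all libraries of a group. Lox, a collagen cross-linking enzyme, fell with a log2 fold change of -3.37, the matrix gene Fbln2 with -2.93, and the collagen genes Col5a2 and Col3a1 with -2.78 and -2.75. Pooled reads of the Y-linked genes Ddx3y, Eif2s3y, Kdm5d and Uty numbered 103 in p53-deficient and 1161 in WT libraries, 9.98 times lower at equal depth (95% interval 8.15 to 12.3). The part of these levels in the lower Vim and Nes was not tested. In libraries made from a whole culture, fewer cells of a type and less RNA per cell cannot be told apart.

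The order of the genes by level differed between the groups. In p53-deficient cells the order from high to low was Vim, Nefl, Nefm, Ina, Nes, Nefh and Prph, where only Ina (5.18 to 5.81 FPKM) and Nes (5.21 to 5.56 FPKM) overlapped between neighbours. In WT cells it was Vim, Nes, Nefh, Ina, Nefl, Prph and Nefm, where only Nefh (7.26 to 7.51 FPKM) and Ina (6.81 to 7.55 FPKM) overlapped. FPKM divides by the deposited gene length, which for all 7 genes equals the summed exons of every transcript annotated in GENCODE release M21. For Nefm that length is 5782 bases, whereas the shorter transcript Nefm-201 has 3334. Per length of Nefm-201 alone, Nefm would stand at 38.5 ± 0.815 FPKM in p53-deficient cells and 1.21 ± 0.0932 FPKM in WT cells. On that length Nefm would lie above Nefl on its deposited length in p53-deficient cells. It would remain the lowest gene in WT cells.

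Nefm and Nefl are neighbours whose annotated exons overlap on opposite strands. The last exon of the long transcript Nefm-202 runs from 68082590 to 68084970 on chromosome 14 and covers 1108 of the 1147 bases of the first exon of Nefl. The shared bases make up 19.2% of the exon length of Nefm and 32.8% of that of Nefl. How reads in such bases were counted is not stated: they may have been left out for both genes, or counted for both. Of other overlapping genes, Gm47302 lies with 100% of its exon bases in exons of Col3a1 on the same strand. It was at 0 FPKM, while Col3a1 averaged 27.9 FPKM. Gm29233 shares 74.0% of its exon bases with Thbs1 on the opposite strand and was at 0 FPKM, beside 98.3 FPKM for Thbs1. Reads of the shared bases were thus not counted for both genes in these pairs. If reads shared by Nefm and Nefl were left out, the level of Nefl over its remaining 2272 bases would be 40.9 ± 1.67 FPKM in p53-deficient cells. In WT cells it would be 7.83 ± 1.09 FPKM. Its WT libraries would then span 6.58 to 8.61 FPKM and overlap those of Nefh and Ina, so the order of these 3 genes in WT cells also depends on the length used. In p53-deficient libraries Nefl over those 2272 bases would span 39.4 to 42.7 FPKM, against 37.7 to 39.4 FPKM for Nefm per length of Nefm-201. The order of Nefm and Nefl in p53-deficient cells thus depends on the lengths used as well.

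**Figure D3:**
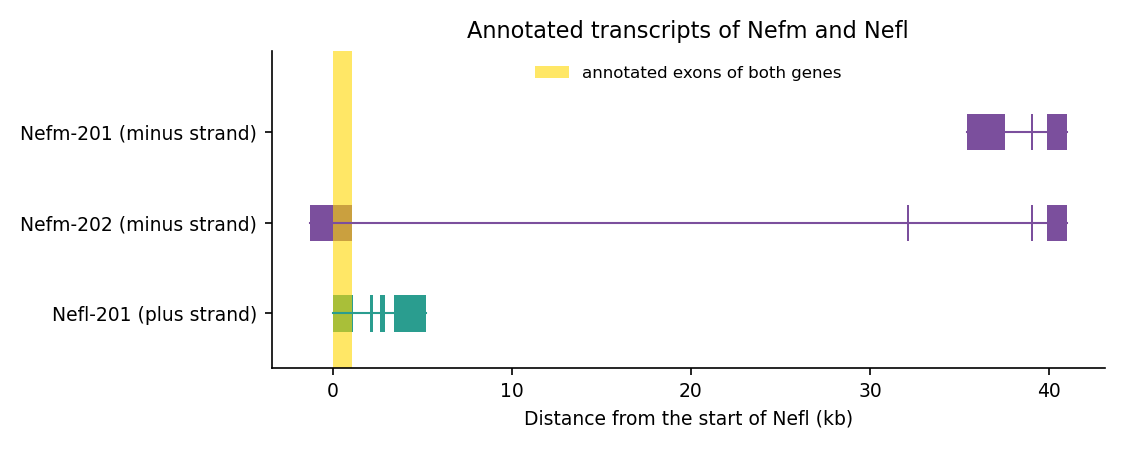
Annotated transcripts of Nefm and Nefl by distance in kilobases from the start of Nefl; boxes are exons, lines introns, and the shaded band the bases that are exonic in both genes. The band spans 1108 bases and is covered by the long Nefm-202 transcript but not by Nefm-201, whose last exon stops 35420 bases from the start of Nefl.

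The reads of both genes were therefore set side by side per library. Scaled to library depth as RPM, Nefm had 130, 126 and 129 RPM in p53-deficient libraries, against 4.10, 3.76 and 4.38 in WT libraries. Nefl had 91.6, 89.6 and 97.4 RPM in p53-deficient libraries, against 19.8, 19.1 and 15.1 in WT libraries. In p53-deficient cells Nefm thus had more reads than Nefl as a whole, and it kept 38.5, 36.4 and 31.3 RPM after every Nefl read was subtracted, above the total Nefm level of each WT library. With even coverage along Nefl, 30.0, 29.4 and 31.9 RPM of Nefl would fall in the shared bases in p53-deficient libraries, against 6.49, 6.26 and 4.97 in WT libraries. In WT libraries that number was above all reads counted to Nefm. Had shared reads been counted for both genes, the WT level of Nefm could not have been told apart from reads of Nefl. In the Col3a1 and Thbs1 overlaps given above, shared reads were not counted for both genes. For Nefm and Nefl this was not tested.

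**Figure D4:**
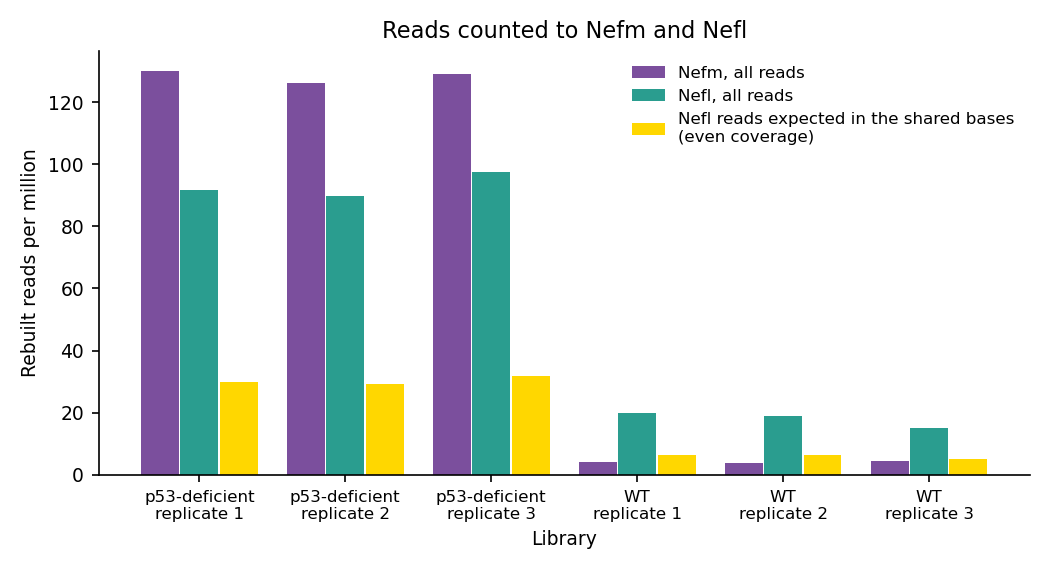
Rebuilt reads, scaled to library depth (RPM), counted to Nefm and to Nefl in each library, with the Nefl reads expected in the shared bases at even coverage; p53-deficient libraries are on the left and WT libraries on the right. Nefm bars stand above Nefl bars in the 3 p53-deficient libraries and below the expected shared reads in the 3 WT libraries.

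Of the protein-coding genes on either side of the pair, Dock5, a guanine exchange factor 149148 bases from it, averaged 9.03 ± 0.218 FPKM in p53-deficient cells and 5.60 ± 0.131 FPKM in WT cells (SD, n = 3 each). It rose with a log2 fold change of 0.60 (limma adjusted p = 1.3e-05). Adam7, 372490 bases away on the other side, had 1 read in the p53-deficient libraries together and 2 in the WT libraries and was not tested.

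Core promoters were compared for the 4 genes with an entry in the RefSeq promoter table (GRCm38.p6), Ina, Prph, Nes and Vim. The 150 bases before the start site are shown because Ina, Nes and Vim were lower and Prph was higher, and capitals mark 3 motifs on either strand: TATAAA (the TATA box), GGGCGG (the GC box bound by Sp1) and CCAAT. No marked motifs overlap. All lie on the plus strand of the genome. RefSeq's starts are not those of the deposited table: they lie 384 bases inside the gene for Vim, 15 bases inside it for Nes and 17 bases before it for Ina, and coincide for Prph.
Ina (chr19:47014531-47014680): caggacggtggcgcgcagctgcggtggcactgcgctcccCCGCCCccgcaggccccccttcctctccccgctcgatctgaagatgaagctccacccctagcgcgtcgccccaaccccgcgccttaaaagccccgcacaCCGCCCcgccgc
Prph (chr15:99055024-99055173): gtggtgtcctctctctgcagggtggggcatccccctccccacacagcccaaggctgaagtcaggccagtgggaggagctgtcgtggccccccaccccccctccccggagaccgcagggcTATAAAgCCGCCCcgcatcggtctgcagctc
Nes (chr3:87970943-87971092): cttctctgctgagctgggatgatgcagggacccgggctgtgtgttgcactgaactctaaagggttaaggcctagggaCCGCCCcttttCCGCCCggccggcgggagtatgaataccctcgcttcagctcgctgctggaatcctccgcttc
Vim (chr2:13574161-13574310): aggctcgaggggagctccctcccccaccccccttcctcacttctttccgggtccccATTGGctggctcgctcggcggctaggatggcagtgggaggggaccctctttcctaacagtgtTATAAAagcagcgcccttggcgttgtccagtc

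The TATA box stood in the windows of Prph, which was higher, and Vim, which was lower, and in 8.08% of 27025 promoters of the same length. The GC box stood in those of Ina, Prph and Nes and in 29.0% of all promoters, and CCAAT in that of Vim and in 25.3% of all. The p53 half-site was found in none of the 4 windows and in 4.0% of all promoters. Such matches describe letters in a window and are not binding sites.

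Other lists are read against all genes tested, of which 66.5% were called at an adjusted p of 0.05 (limma, Benjamini-Hochberg), 35.3% higher and 31.3% lower. Calls with a change of at least 2-fold made up 9.72%, 3.42% higher and 6.3% lower. In what follows, rose and fell are used of called genes, and values after such a word are log2 fold changes. Of 22 other intermediate filament genes listed, 15 were tested, 7 were higher and 4 lower, with a median log2 fold change of 0.21 against 0.03 over all genes. That number of calls is near the share of all genes called. Krt42, a type I keratin, rose to 9.96 ± 0.682 FPKM in p53-deficient cells, against 2.35 ± 0.0565 FPKM in WT cells, with 1.71 (SE 0.0534; SD over n = 3 each). Krt17 rose with 1.02. Krt8 and Krt18, which pair as the keratin of simple epithelia, rose with 0.69 and 0.85. Krt8 has a processed copy, Krt8-ps, that averaged 0.139 FPKM. Lmna, which encodes the A-type nuclear lamins, fell to 7.93 ± 0.669 FPKM in p53-deficient cells, against 17.2 ± 0.312 FPKM in WT cells, with -1.03 (SE 0.0556). Synm (synemin), a large filament protein that assembles with vimentin or desmin, had 0.0899, 0.175 and 0.121 FPKM in p53-deficient libraries, against 1.22, 1.16 and 1.18 FPKM in WT libraries, and fell with -0.95. The muscle filament gene Des had 1.52, 0.991 and 1.43 FPKM in p53-deficient libraries, against 1.25, 1.41 and 1.20 FPKM in WT libraries, and the astrocyte filament gene Gfap was too low to test. Iffo1, the most abundant that was not called, had a log2 fold change of -0.06 (SE 0.0663).

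Of 26 listed genes that link, phosphorylate, transport or degrade filaments, 24 were tested, 7 were higher and 12 lower, beside 66.5% of all genes called. The median log2 fold change was -0.12. After each library was scaled by its median log2 ratio, 4 were higher and 13 lower. That scaling gave 4180 higher and 5680 lower over all 15144 genes, against 5341 and 4733 without it. Capn2, a calpain protease, fell to 3.87 ± 0.209 FPKM in p53-deficient cells, against 9.57 ± 0.340 FPKM in WT cells, with -1.12 (SE 0.0472), and 27.1% of its exon length overlaps an annotated gene on the opposite strand that averaged 0.0258 FPKM. The cytolinker genes Plec (plectin) and Macf1 changed in opposite directions, with 0.76 and -0.84. Kif5a, a motor that carries neurofilaments along axons, fell with -0.75. Stub1, a ubiquitin ligase gene, averaged 28.5 ± 1.71 FPKM in p53-deficient cells and 28.6 ± 0.718 FPKM in WT cells and was not called. Of its annotated exon bases, 42.3% are shared with Jmjd8 on the opposite strand.

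Of 24 neuron genes listed, 15 were tested, 7 were higher, 5 were lower and 3 were not called, beside 35.3% of all genes called higher and 31.3% called lower, with a median log2 fold change of 0.17. Gap43, a growth cone gene, fell to 2.55 ± 0.405 FPKM in p53-deficient cells, against 8.67 ± 0.437 FPKM in WT cells, with -1.45 (SE 0.0896). Tubb3, the neuronal beta-tubulin gene, fell to 31.7 ± 0.979 FPKM in p53-deficient cells, against 64.3 ± 2.87 FPKM in WT cells. Nsg1, a neuronal endosome gene, fell with -1.12. Exons of Nsg1 share 17.9% of their length with Stx18. Chga, a gene of secretory granules, rose with 1.18 and Stmn2, a microtubule regulator of axons, with 0.58. Uchl1 averaged 63.4 ± 5.13 FPKM in p53-deficient cells and 56.1 ± 4.59 FPKM in WT cells without passing (limma adjusted p = 0.0906). Synaptic and axonal genes were in part detected. Syn1, a synaptic vesicle gene, averaged 4.43 ± 0.226 FPKM in p53-deficient cells and 5.33 ± 0.484 FPKM in WT cells, a log2 fold change of -0.22 whose call ended without WT replicate 1, WT replicate 3 or p53-deficient replicate 2, without the filter and with quantile scaling. Mapt, which encodes tau, averaged 3.10 ± 0.220 FPKM in p53-deficient cells and 2.28 ± 0.0886 FPKM in WT cells and rose with 0.32. Some other neuron markers were near 0. Rbfox3 (NeuN), a mark of mature neurons, reached at most 0.119 FPKM in p53-deficient and 0.0697 FPKM in WT libraries, and the synaptic gene Snap25 reached at most 0.0892 FPKM in p53-deficient and 0.0224 FPKM in WT libraries. Dcx, a mark of migrating immature neurons, reached 0.0113 FPKM in p53-deficient libraries and was listed at 0 in all WT libraries. The summed level of the 24 genes was 170 to 181 FPKM in p53-deficient and 185 to 197 FPKM in WT libraries.

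Neural progenitor genes were low. Of 21 listed, 7 passed the filter, of which 6 were lower and 1 was higher, beside 66.5% of all genes called, with a median log2 fold change of -0.70. Zic2, a zinc finger gene of the early neural plate, fell to 4.60 ± 0.299 FPKM in p53-deficient cells, against 13.6 ± 0.538 FPKM in WT cells, with -1.39 (SE 0.0513). Sox3 and Notch1 fell with -0.99 and -0.83, beside the lower level of Nes, while the glutamate transporter gene Slc1a3 rose with 0.97. Sox1 and Pax6, which define neuroectoderm, reached at most 0.364 and 0.281 FPKM in p53-deficient libraries and 0.462 and 0.0868 FPKM in WT libraries.

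REST is a repressor that keeps neuronal genes silent outside neurons, together with the corepressors CoREST and Sin3a. Of 13 listed genes all were tested, 10 were higher and 2 lower, beside 66.5% of all genes called, with a median log2 fold change of 0.15. After scaling by the median log2 ratio 6 were higher and 2 lower, beside 4180 higher and 5680 lower over all 15144 genes. Rest itself averaged 41.5 ± 0.348 FPKM in p53-deficient cells and 43.2 ± 0.305 FPKM in WT cells, a log2 fold change of -0.06 (limma adjusted p = 0.0391) whose call ended when any 1 of the 6 libraries was left out. Kdm1a, a histone demethylase of the complex, rose with 0.45, Ctdsp1, a phosphatase that acts on REST, with 0.50, and Hdac1 fell with -0.33. Hdac1 has a near-identical copy, Gm10093, at 71.4 FPKM, so its level is uncertain. Rcor3, a CoREST family gene, was the one not called. None of the 13 changed by 2-fold or more.

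**Figure D5:**
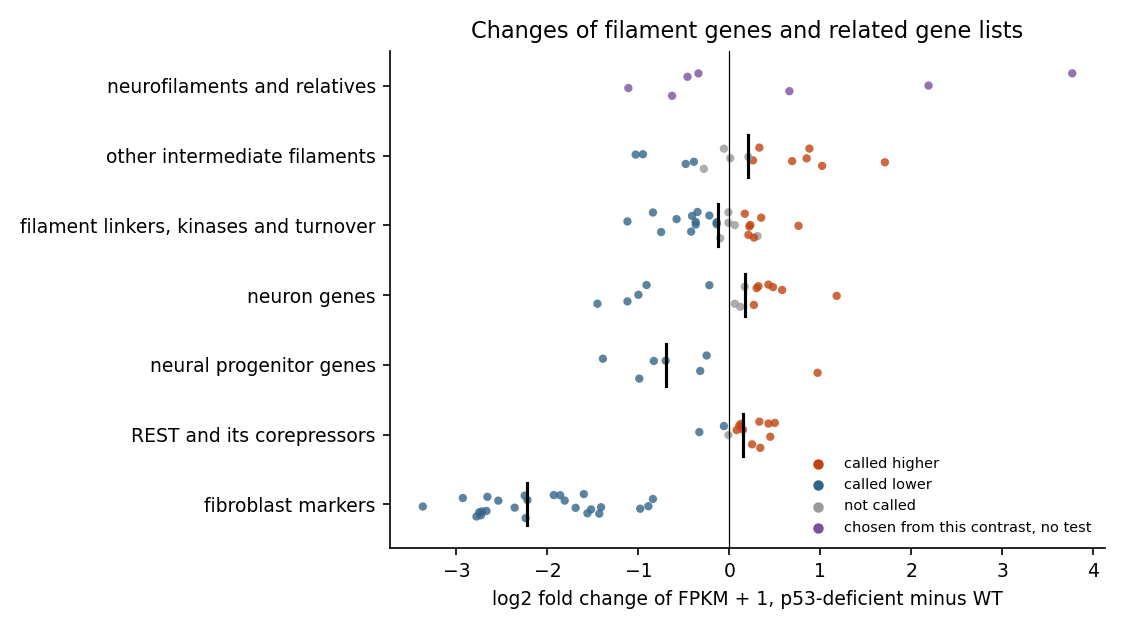
Log2 fold change of FPKM + 1, p53-deficient minus WT, for the 7 genes (top, no test) and for the tested genes of 6 lists; each point is a gene, colour gives its call, and black bars are list medians. Nefm at 3.77 and Nefl at 2.19 lie to the right of every other point, and the 25 fibroblast markers all lie below 0.

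Genes with the profile nearest to each of 4 members were sought among 11009 protein-coding genes with a mean of 1 FPKM or more. The measure was the Euclidean distance between log2(FPKM + 1) profiles over the 6 libraries. Each profile was first centred on the mean of its gene, so levels were not compared. For Nefm the nearest genes were Ifi27, Rpl26 and Rps18, at distances of 0.148, 0.171 and 0.274. Both ribosomal protein genes have expressed near-identical copies and are uncertain. Ifi27, an interferon-induced gene, averaged 122 ± 5.53 FPKM in p53-deficient cells and 7.45 ± 0.414 FPKM in WT cells (SD, n = 3 each). For Nefl they were Tex13b, Fos and Zfp951, with Tex13b at 0.117 and at 13.8 ± 0.183 FPKM in p53-deficient cells against 2.25 ± 0.236 FPKM in WT cells. For Nes they were Ror2, a Wnt5a receptor, the arginine transporter gene Slc7a1 and Slc35d1, at 0.0381 to 0.0522. For Vim they were Pdcd6ip, Prex2 and Sh3gl3, at 0.0298 to 0.0439. Prex2 shares 116 bases at 97.4% identity with Eef1a1, which averaged 3711 FPKM, so the level of Prex2 is uncertain. These profiles are set mostly by the difference between the groups.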

How the data were processed

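Polyadenylated RNA was selected and made into libraries (NEBNext Ultra kit), per the labels' protocols. The deposited values are FPKM per gene and library, which the authors made; the submitters' processing notes name HISAT2 2.0.5, featureCounts 1.5.0-p3 and build mm10, without roles. Multiplied by gene length, 100% of the values above 0 were whole numbers of 1 read's worth (tolerance 0.001), and reads were rebuilt from them. The p53-deficient and WT libraries, 3 each, were compared on log2(FPKM + 1) with limma 3.58.1 (R 4.3.3; a trend of variance with level, two-sided, Benjamini-Hochberg) over the 15144 genes averaging 0.5 FPKM or more. An exact permutation test of 3 libraries against 3 cannot go below 0.1. The fit was tested on simulated reads. No pair of replicates agreed within sampling noise: over genes with at least 20 reads the chi-square per gene was 1.86 to 2.84. Shared exons were taken from GENCODE M21. BLAST+ 2.17.0 searched for near-identical copies of the longest transcript of each gene examined (95% identity over 100 bases or more).

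The genes and lists were chosen with earlier results of these data known. Named in each list were up to 4 called genes of mean FPKM at least 1 with the largest change of at least 2-fold and the most abundant gene not called, plus the nearest profiles, the neighbours of the Nefl and Nefm pair, Trp53 and Cdkn1a. Other list genes were chosen after their values were seen. The alternatives tried were dropping the filter or raising it to 5 FPKM, a pseudocount of 0.1, median-ratio and quantile scaling, voom weights on rebuilt reads, the replicate number as a block, and each library left out. Plots used matplotlib 3.10.9 (Python 3.11.15).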

Additional observations from a re-analysis of the deposited data

How the results depend on the processing

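For the 7 genes, whose values chose them, the log2 fold change ranged from 3.70 to 4.97 for Nefm, 2.09 to 2.39 for Nefl, 0.59 to 0.98 for Prph, -0.78 to -0.57 for Nefh, -0.43 to -0.30 for Ina, -1.26 to -1.08 for Nes and -0.57 to -0.44 for Vim. Prph falls below a mean of 5 FPKM, so that 6 of the 7 had a value there. Also at a mean FPKM of at least 5, fewer list genes were tested. Of the genes tested there, those called were 6 of 6 other filaments and 12 of 15 of the linker, kinase and turnover list. In the same setting 5 of 6 neuron genes and 1 of 1 neural progenitor genes were called. With the replicate number as a block, 12 other filaments, 18 linker genes, 13 neuron genes, 7 progenitor genes, 10 REST genes and 25 fibroblast markers were called. The numbers did not pair the libraries, since deviations of same-numbered libraries correlated at -0.0328 to 0.0142. The Y-linked ratio was 9.56 to 10.6 with each library left out. Nefm in WT cells rests on 232 reads and Prph on 161, which limits the precision of their ratios.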
